A study of Mus musculus with 8 samples.

Results

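The genes described here encode enzymes and one partner protein that turn arachidonic acid into eicosanoids. The set held 8 named genes: the lipoxygenases Alox15, Alox12 and Alox5, the 5-lipoxygenase activating protein Alox5ap, the phospholipase Pla2g4a, the prostaglandin synthases Ptgs1 and Ptgs2, and the prostaglandin E synthase Ptges. All probe sets annotated to these symbols were taken, which gave 11 probe sets for 7 genes, of 18193 genes measured. No probe set carried the symbol Ptgs1, so this gene was not analysed here. The set was drawn around Alox15 and Ptgs2 because both stood high in cells with siRNA against Cbx3. The values of that comparison, and of the comparison between the knockdowns, which uses the same Cbx3 arrays, are therefore given for these genes as a description with no test.

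Expression was measured on 8 arrays of mouse pre-iPSCs, cells that entered reprogramming to a pluripotent state and stalled short of it. Control arrays (n = 3) came from cells with siRNA against luciferase, a gene that mouse cells lack. The 3XHMT arrays (n = 2) came from cells with pooled siRNA against the H3K9 methyltransferase genes Setdb1, Ehmt1 and Ehmt2, and the Cbx3 arrays (n = 3) from cells with siRNA against Cbx3, the gene for HP1 gamma, a protein that binds methylated H3K9. The cells were cultured in medium for embryonic stem cells, siRNA exposure lasted 3 days in every group, and no line or clone is named in the labels. Values are log2 expression after RMA, and array medians lay between 5.87 and 5.90.

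The arrays and labels were checked first. Pou5f1, the gene for the pluripotency factor Oct4, lay between 12.59 and 13.23 on every array, while Zfp42, a gene of fully reprogrammed cells, lay between 6.59 and 7.53 in control cells, above the array medians. These markers were not level across the groups. Of 11 markers of pre-iPSCs and pluripotent cells, 3 (27.3%) passed higher by limma in 3XHMT against control, beside 0.231% of all genes. They were Dppa4, Nanog and Zfp42. In Cbx3 against control Nanog alone passed, beside 0.445% of all genes. At its brightest probe set, which the annotation gives to both Cbx3 and the pseudogene Cbx3-ps5, Cbx3 signal in the Cbx3 arrays was 42.8% of control, with an adjusted p of 0.0453 over all probe sets (limma). Other probe sets given to both stood at 37.9%, 43.9% and 79.0% of control (limma adjusted p = 0.0465, 0.0525 and 0.967). The probe set given to Cbx3 alone, averaging 5.90, stood at 82.9% with overlap (limma adjusted p = 0.988). Setdb1, Ehmt2 and Ehmt1 in the 3XHMT arrays were at 63.2%, 66.8% and 79.6% of control at their brightest probe sets, and none passed the test. The middle probe set of the 18S ribosomal RNA control split the arrays into 3 tiers of low, middle and high signal. The low tier held control 3, 3XHMT 2 and Cbx3 3, the middle tier control 1 and Cbx3 1, and the high tier control 2, 3XHMT 1 and Cbx3 2. Another 18S probe set read 11.08, 10.93 and 10.62 in the low tier and 10.35 and 10.62 in the middle tier. The low and middle tiers were thus not in that order there, while a further 18S probe set kept it. Differences within a tier are given beside the pooled values below.

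Eicosanoid synthesis starts when cytosolic phospholipase A2, the product of Pla2g4a, frees arachidonic acid from membranes. Cyclooxygenases convert it to prostaglandin H2, Ptgs1 as the constitutive and Ptgs2 as the inducible form, and terminal synthases such as Ptges then make single prostaglandins. Lipoxygenases oxygenate the same acid at set positions: the mouse Alox15 product is known as 12/15-lipoxygenase, the Alox12 product as the platelet 12-lipoxygenase, and the Alox5 product works with Alox5ap at the head of leukotriene synthesis. Ptgs2 is known as an early response gene, and its promoter in mouse is known for a C/EBP site and for a cyclic AMP response element that overlaps an E-box.

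The Ptgs2 promoter is shown because Ptgs2 moved under both knockdowns. The window runs from 120 bases before to 30 bases after the RefSeq start of the gene on GRCm38.p6, chr1:150099911-150100060, plus strand. Capitals mark matches, on either strand, to 3 of 4 motifs searched, which were chosen with this sequence and the known elements in view.
Ptgs2: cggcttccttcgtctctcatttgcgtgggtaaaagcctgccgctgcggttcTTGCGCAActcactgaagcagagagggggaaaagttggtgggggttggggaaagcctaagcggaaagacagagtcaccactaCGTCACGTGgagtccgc
The C/EBP motif TTGCGCAA matched with its first base at -69 from the start, and was present in 0.0974% of the 32851 RefSeq promoter windows of the same length. The E-box CACGTG was present in 4.47% of windows and the half-site CGTCA of the cyclic AMP response element in 14.03%. These matches overlap downstream of the RefSeq start and run together in the capitals. That start is an annotated one and no transcription start was mapped here, so these positions hold for the RefSeq start only. The AP-1 motif TGANTCA, present in 4.16% of windows, had no match in this window. The promoter table held entries for 6 of the 8 genes, with none for Alox15 or Alox5ap.

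Ptgs2, the inducible cyclooxygenase gene, rose in cells with siRNA against the 3 methyltransferases. At the brightest probe set the control arrays read 7.24, 7.29 and 7.56, the 3XHMT arrays 8.67 and 9.19, and the Cbx3 arrays 9.17, 9.15 and 9.46. Both knockdowns lay above every control array, while 3XHMT and Cbx3 arrays overlapped. Control averaged 7.36 ± 0.17 (SD, n = 3) and 3XHMT 8.93 ± 0.37 (SD, n = 2), which was 2.97-fold higher, with a log2 difference of 1.57 ± 0.19 (SE) and a limma adjusted p of 0.0283 over 18193 genes. Within the low and high tiers the 3XHMT array exceeded its control by 1.64 and 1.38, and a fit blocked on the tier gave an adjusted p of 0.000519. Among all genes the difference ranked 39 from the top. Ptgs2 was the single one of the 7 genes to pass in this comparison, in which 0.231% of all genes did, and also the single one in the blocked fit, in which 1.76% did.

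The call for Ptgs2 depended on single arrays. When arrays were dropped in turn and limma refitted, the adjusted p stayed under the threshold without the third control (0.0399) or the third Cbx3 array (0.0359). It passed above it without control replicate 1 (0.111), control replicate 2 (0.112), 3XHMT replicate 1 (0.0903), 3XHMT replicate 2 (0.113), Cbx3 replicate 1 (0.0692) or Cbx3 replicate 2 (0.0664). The difference itself stayed between 1.31 and 1.83 under these 8 omissions. The control arrays are those of the comparison on which Ptgs2 was picked, so the 2 comparisons are not independent.

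In the Cbx3 arrays the mean of Ptgs2 was 9.26 ± 0.18 (SD, n = 3), 3.72-fold above control. The difference was near equal in every tier, at 1.90, 1.93 and 1.86 for the low, middle and high tiers. 3XHMT and Cbx3 means differed by -0.32 on the log2 scale, with differences of -0.27 and -0.47 within the low and high tiers. The dim second probe set gave the same order of controls and knockdowns with smaller steps. It read 3.90, 4.17 and 4.28 in control, 4.76 and 5.23 in 3XHMT, and 4.94, 5.23 and 5.11 in Cbx3 arrays, again with no knockdown array below a control. Its mean was 1.84-fold above control in 3XHMT cells (adjusted p = 0.332 over all probe sets, limma) and 1.97-fold in Cbx3 cells.

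**Figure D1:**
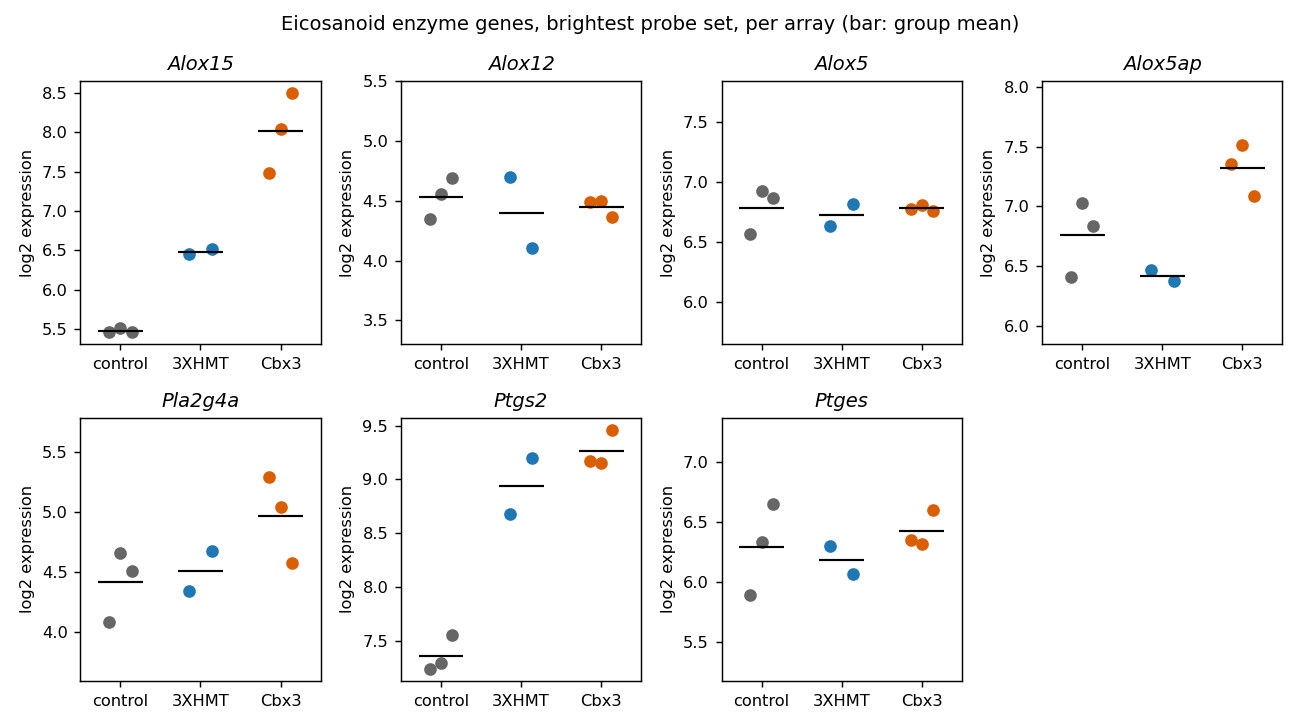
Log2 expression of the 7 measured eicosanoid enzyme genes at their brightest probe set, with 1 point per array, grouped by siRNA, and a bar at each group mean. Alox15 steps up from control through 3XHMT to Cbx3, Ptgs2 is high in both knockdowns, and the arrays of Alox5, Alox12 and Ptges overlap between control and each knockdown.

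Alox15, the 12/15-lipoxygenase gene, was low and tight in control cells and stood at different heights under the 2 knockdowns. Its single probe set read 5.46, 5.52 and 5.46 in control, 6.45 and 6.52 in 3XHMT, and 7.49, 8.04 and 8.50 in Cbx3 arrays. The 3 groups did not overlap, with every 3XHMT array between the controls and the Cbx3 arrays. Genes ordered this way with no overlap made up 0.374% of all genes, 68 in number. The controls lay below the array medians and the knockdowns above them.

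The 3XHMT mean of Alox15 was 6.48 ± 0.05 (SD, n = 2) against 5.48 ± 0.03 (SD, n = 3) in control, 2.01-fold, with a log2 difference of 1.00 ± 0.25 (SE). That difference did not pass over all genes (limma adjusted p = 0.332, or 0.0723 in the blocked fit). Within the low and high tiers the difference was 1.06 and 0.93. The 95% interval of the pooled difference ran from 1.35-fold to 2.97-fold. That interval is for this gene alone and is not adjusted over all genes. The Cbx3 mean was 8.01 ± 0.51 (SD, n = 3), 5.77-fold above control and 2.88-fold above 3XHMT, and the difference from control ranked 2 among 18193 genes. It varied more between tiers than that of Ptgs2, at 3.03, 2.03 and 2.53 in the low, middle and high tiers, with the widest step in the low tier.

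**Figure D2:**
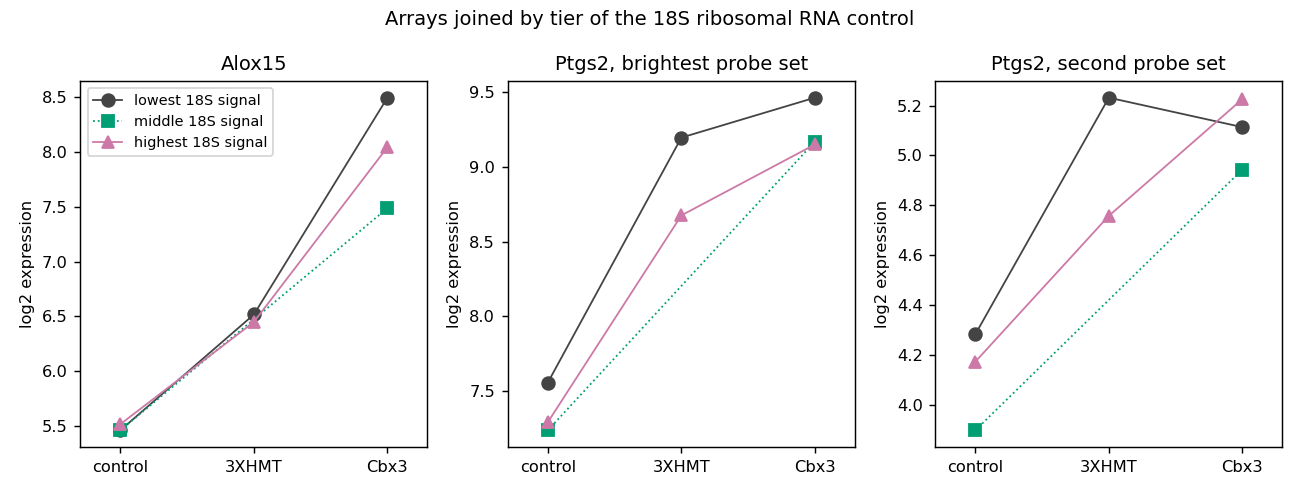
Log2 expression of the Alox15 probe set and both Ptgs2 probe sets, with arrays of the same 18S tier joined by a line (dotted for the middle tier, which has no 3XHMT array). In every tier the Cbx3 array lies above its control, and at the brightest Ptgs2 probe set the climbs are 1.90, 1.93 and 1.86 in the low, middle and high tiers.

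Alox5ap, whose product presents arachidonic acid to 5-lipoxygenase, stood highest in Cbx3 and lowest in 3XHMT cells on average. It read 6.41, 7.03 and 6.84 in control, 6.46 and 6.38 in 3XHMT, and 7.36, 7.52 and 7.09 in Cbx3 arrays. The Cbx3 arrays lay above all others, and the 3XHMT arrays overlapped with control 1 only. Against control, the 3XHMT mean was 1.26-fold lower, a log2 difference of -0.34 ± 0.20 (SE) that did not pass (limma adjusted p = 1.00, blocked 0.327). The Cbx3 mean was 1.48-fold above control and 1.86-fold above 3XHMT. Within the tiers the Cbx3 array exceeded its control by 0.25, 0.95 and 0.49.

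Alox5, the enzyme that Alox5ap serves, differed little between groups. It read 6.56, 6.93 and 6.87 in control, 6.63 and 6.81 in 3XHMT, and 6.78, 6.81 and 6.76 in Cbx3 arrays, and all groups overlapped. The 3XHMT difference of -0.06 ± 0.14 (SE) did not pass (limma adjusted p = 1.00), with a 95% interval from -0.39 to 0.26. In Cbx3 cells the mean was 99.8% of control.

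Alox12, the platelet 12-lipoxygenase gene, was dim at both probe sets. The brighter one read 4.35, 4.56 and 4.69 in control, 4.70 and 4.10 in 3XHMT, and 4.49, 4.50 and 4.36 in Cbx3 arrays, below the array medians throughout. The groups overlapped, with the 3XHMT arrays farthest apart, and the 3XHMT difference was -0.13 ± 0.19 (SE; limma adjusted p = 1.00). The other probe set lay between 2.84 and 3.58 on all arrays.

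Pla2g4a, which supplies the substrate of all these enzymes, had 1 probe set and was also dim. It read 4.08, 4.65 and 4.50 in control, 4.34 and 4.67 in 3XHMT, and 5.29, 5.04 and 4.57 in Cbx3 arrays. Cbx3 replicates 1 and 2 lay above all other arrays, while replicate 3 lay among them. The 3XHMT difference was 0.09 ± 0.24 (SE; limma adjusted p = 1.00), and the Cbx3 mean was 1.47-fold above control, with tier differences from 0.07 in the low tier to 1.21 in the middle one.

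Ptges, which makes prostaglandin E2 from the Ptgs2 product, did not follow Ptgs2. At its brightest probe set it read 5.89, 6.33 and 6.66 in control, 6.30 and 6.07 in 3XHMT, and 6.35, 6.32 and 6.60 in Cbx3 arrays, and both knockdowns lay inside the range of the controls. The 3XHMT difference was -0.11 ± 0.22 (SE; limma adjusted p = 1.00), with a 95% interval from 0.656-fold to 1.31-fold. The second probe set differed by -0.11 in 3XHMT and -0.20 in Cbx3 cells, and the dimmest by 0.09 and 0.21, so the 3 probe sets did not share a direction.

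**Figure D3:**
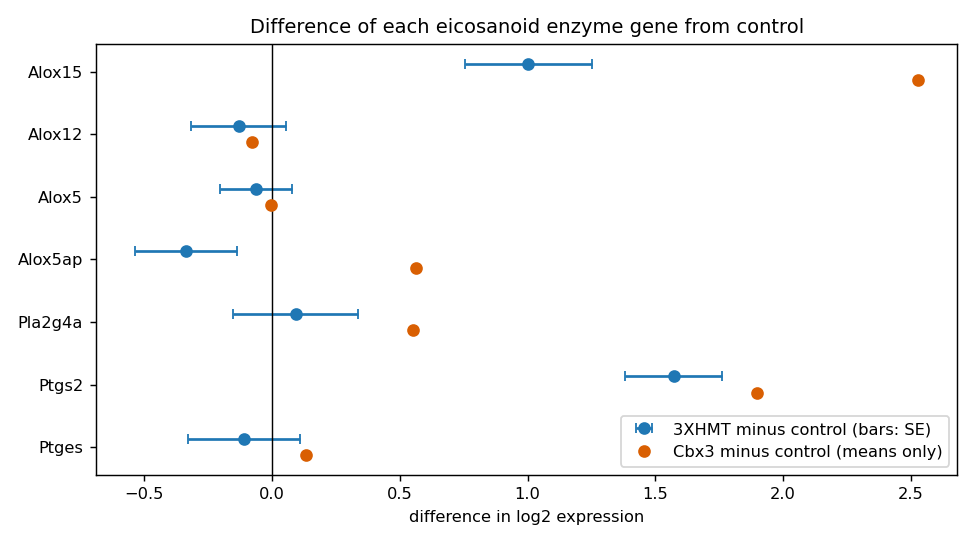
Difference in log2 expression from control for each gene at its brightest probe set, with the SE of the limma fit as bars for 3XHMT and means alone for Cbx3. The highest 3XHMT differences are those of Ptgs2 (1.57) and Alox15 (1.00), and the highest Cbx3 differences those of Alox15 (2.53) and Ptgs2 (1.90).

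Counted as a set, 3 of the 7 genes were higher and 4 lower in 3XHMT than in control cells, with a median log2 difference of -0.06, against a median of 0.01 over all genes. Of the 7, Alox15 and Ptgs2 had arrays that did not overlap in that comparison, both higher, while 16.4% of all genes did not overlap and 9.28% were higher without overlap. In Cbx3 cells 5 of 7 were higher, with a median of 0.55 against 0.01 over all genes. There the arrays of 3 genes (Alox15, Ptgs2 and Alox5ap) did not overlap, all higher, while 14.3% of all genes did not overlap and 7.52% were higher. Since this comparison chose the set, nothing is read from these counts.

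The rest of the eicosanoid pathway was then examined in 9 lists of 86 genes, of which 78 were measured. In 3XHMT cells 0 of the 78 passed over all genes in limma, with 2 higher and 4 lower at an unadjusted p under 0.05 (7.69%, beside 5.27% of all genes), and their median difference was -0.01. The lowest p belonged to Mgst2, a microsomal glutathione transferase that can make leukotriene C4. It read 8.09, 8.24 and 8.40 in control and 6.87 and 6.46 in 3XHMT arrays, 2.99-fold lower with no overlap (adjusted p = 0.0682, blocked 0.0116). The platelet-activating factor hydrolase gene Pla2g7 stood 2.24-fold higher (adjusted p = 0.715), and Ptgfrn, a partner of the prostaglandin F receptor, 1.35-fold lower (0.689). In the fit blocked on the tier, where 1.76% of all genes were called, 3 of the 78 fell: Mgst2, its relative Mgst3 (adjusted p = 0.0415) and Ptgr1, which inactivates prostaglandins and leukotriene B4 (0.0328).

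In Cbx3 cells 1 of the 78 passed in limma, where 0.445% of all genes did. It was Dagla, the diacylglycerol lipase that makes the arachidonate-bearing lipid 2-arachidonoylglycerol. It read 7.13, 7.13 and 7.38 in control, 7.34 and 7.38 in 3XHMT, and 8.10, 8.08 and 8.08 in Cbx3 arrays. The Cbx3 arrays were higher than all others and nearly equal, 1.83-fold above control (adjusted p = 0.0260) and 1.65-fold above 3XHMT (0.0299). Against control the call survived dropping control replicate 3 and no other array, the adjusted p reaching 0.119. Against 3XHMT it survived dropping control replicate 1 or 3, and the adjusted p reached 0.163 for the other 6.

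Blocking on the tier, 5 of the 78 passed in Cbx3 cells, beside 6.59% of all genes. With the replicate number as block, which groups the 3XHMT arrays otherwise, 1 passed, Dagla, beside 1.71% of all genes, so the other 4 calls rest on the tier block. In the tier-blocked fit Dagla rose, and so did Ptgds, a prostaglandin D synthase, at 1.98-fold (adjusted p = 0.0117; 0.124 without the block), and the lipoxygenase gene Alox12e at 1.37-fold (0.0460; 0.547 without). The arachidonic acid epoxygenase genes Cyp2j6 and Cyp2j9 fell, standing 1.68-fold and 2.14-fold lower (0.0157 and 0.0408; 0.490 and 0.589 without). Downstream of the enzymes, 0 of 10 genes of the prostanoid receptor list and 0 of 6 leukotriene and lipoxin receptor genes passed in limma in either comparison with control, with or without the block. At an unadjusted p under 0.05, Ptgfrn and the prostaglandin E receptor gene Ptger2 alone stood out among them, both in 3XHMT cells. Ptger2, named after its values were seen, read 5.11 in 3XHMT replicate 1 and between 3.34 and 3.54 on the other arrays. The 6 leukotriene and lipoxin receptor genes all had a mean below the median probe set, 5.89.

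**Figure D4:**
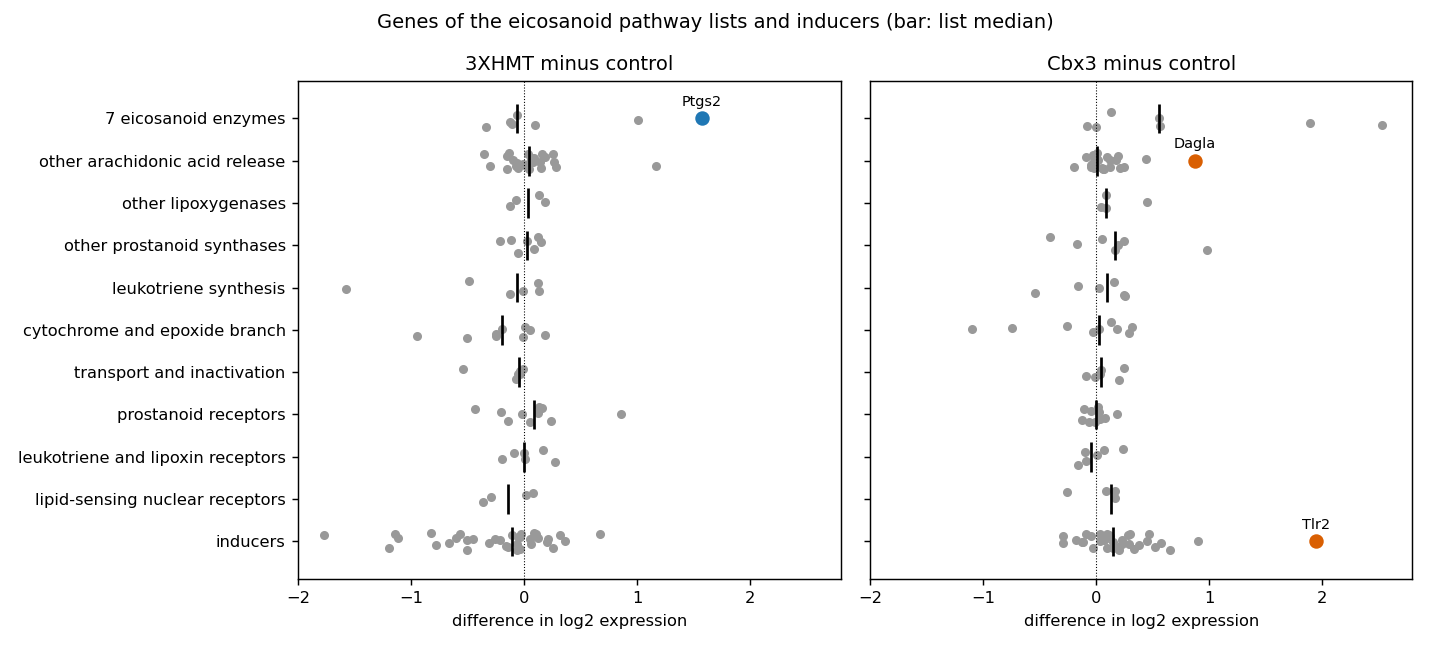
Difference in log2 expression from control for genes of the pathway and inducer lists, 1 point per gene, in 3XHMT (left) and Cbx3 cells (right), with a bar at each list's median. Coloured points passed the limma test over all genes: Ptgs2 on the left, and Dagla and Tlr2 on the right, where the 7 enzyme genes are shown without a test.

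A list of 36 genes that act on Ptgs2 or Alox15 expression, 35 of them measured, held transcription factors, cytokines, receptors and RNA-binding proteins. In 3XHMT cells 24 were lower and 11 higher, and 0 passed in limma, with 7 lower and 1 higher at an unadjusted p under 0.05. That is 22.9% of the list, beside 5.27% of all genes, of which 51.7% were higher. The lowest p was that of Nfkbia, the NF-kB inhibitor, at 1.42-fold lower (adjusted p = 0.309), followed by Zfp36 and the early response gene Fosb, 3.41-fold lower (0.463). Zfp36 and Egr1, another early response gene, fell in the blocked fit (0.0422 and 0.00397), where 1.76% of all genes were called. In Cbx3 cells 27 were higher and 8 lower, while 53.0% of all genes were higher. At an unadjusted p under 0.05, 5 were higher and 0 lower, 14.3% of the list beside 9.56% of all genes. Tlr2, an innate immune receptor, passed in limma (3.84-fold, adjusted p = 0.0324), where 0.445% of all genes did. Tlr2 is among the genes already known to stand high in these arrays, and its call survived dropping control replicate 3 and no other array (adjusted p up to 0.123). With the tier block, under which 6.59% of all genes were called, the TNF receptor gene Tnfrsf1a (0.0249), Cebpb (0.0257), Junb (0.0291) and Zfp36 (0.00985) also rose. With the replicate block Tlr2 alone of the 35 was called, beside 1.71% of all genes.

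Zfp36 encodes tristetraprolin, which is known to speed the decay of AU-rich mRNAs, Ptgs2 mRNA among them. It read 9.10, 9.43 and 8.99 in control, 8.61 and 8.52 in 3XHMT, and 9.70, 9.91 and 9.87 in Cbx3 arrays, so that 3XHMT arrays lay below and Cbx3 arrays above all controls. The direct comparison of the knockdowns gave 2.39-fold lower Zfp36 in 3XHMT (limma adjusted p = 0.0118), a call lost without 3XHMT replicate 1 (0.0783), 3XHMT replicate 2 (0.0867) or Cbx3 replicate 2 (0.0539). Il13ra1, a receptor chain for interleukin 13, a known inducer of Alox15 in human monocytes, also passed there, 4.06-fold lower in 3XHMT (adjusted p = 0.0463). It read 5.42, 6.35 and 6.05 in control, 4.50 and 5.14 in 3XHMT, and 6.58, 7.53 and 6.42 in Cbx3 arrays, with no overlap between the groups. Its call survived dropping control replicate 1 and no other array (adjusted p up to 0.242). At its second brightest probe set the log2 difference was -1.13 and did not pass (0.178), nor did the mean of its probe sets (0.103). In that comparison 2 of 35 inducers and 1 of 78 pathway genes passed, beside 1.51% of all genes, and 8 and 7 with the block, beside 9.12%.

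Genes next to Alox15 and Ptgs2 were looked up in the RefSeq gene order, taking 3 measured genes on each side. Among measured genes, Alox15 lies between Alox12e and Pelp1, with Alox12 beyond Alox12e, and Ptgs2 lies between Pla2g4a and Pdc. By limma 0 of these 12 neighbours passed in 3XHMT against control, where 0.231% of all genes did. Alox12 and Pla2g4a belong to the set, so they are left untested in Cbx3 cells. Of the other neighbours 0 passed there, where 0.445% of all genes did. With the tier as block, 2 of these other neighbours passed higher in Cbx3 cells, Alox12e and Rnasek (adjusted p = 0.0439), beside 6.59% of all genes. The other neighbours of Ptgs2 (Gm29514, Brinp3, Pdc, Odr4 and Prg4) differed from control by -0.21 to 0.18 in both knockdowns. All but Odr4 were dim, averaging 3.06, 3.02, 3.62 and 4.48 in that order, so their small differences say little.

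Over the 8 arrays, the genes most like Alox15 among 1121 variable genes were Bcl2l11 (Pearson r = 0.955), Tlr2 (0.948), Lxn (0.946), Vstm5 (0.940) and Cpsf4l (0.939). Those most like Ptgs2 were Nanog (0.935), Trim24 (0.933), Klk1b16 (0.931), Serpinb9b (0.924) and Serpinb9 (0.919). Alox15 and Ptgs2 correlated with each other by 0.891. These values describe arrays that share groups and tiers. Nanog, the pluripotency gene, averaged 5.13 in control, 7.94 in 3XHMT and 8.44 in Cbx3 cells, high in both knockdowns as Ptgs2 was. Bcl2l11, a gene of the apoptosis regulator Bim, averaged 9.04, 9.33 and 10.11, with its main step in Cbx3 cells as for Alox15.

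Leukocytes and platelets express Alox5, Alox5ap, Alox12 and Alox15 strongly, so their markers were read in the same arrays. Of 23 measured markers 6 averaged above the median probe set, and 0 passed in limma in any comparison. At an unadjusted p under 0.05, 1 was higher and 1 lower in Cbx3 against control (8.70% of the list, beside 9.56% of all genes). In 3XHMT against control 3 were lower (13.04%, beside 5.27%). Between the knockdowns 1 was higher and 2 lower (13.04%, beside 11.4%). Of the markers below the median probe set, Ptprc, the common leukocyte antigen, lay between 3.25 and 3.47 on all arrays, and Tyrobp, Pf4 and Epx between 4.34 and 4.79. These dim markers do not stand for the 6 above the median. The summed signal of the list, with the log2 undone, was 1579 to 1869 in control, 1289 to 1455 in 3XHMT and 1187 to 1561 in Cbx3 arrays, a sum in which the brightest markers weigh most. In Cbx3 cells 13 of the 23 markers were higher than in control, with a median log2 difference of 0.01, and in 3XHMT cells 11 were higher, with a median of -0.02. The part of such cells in the values of Alox15 and Ptgs2 was not tested. Laptm5, a lysosomal protein of blood cells, was lower in Cbx3 cells with the block (3.38-fold, adjusted p = 0.00114; 0.0601 without). In bulk RNA, fewer cells of a type and less RNA per cell cannot be told apart.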

How the data were processed

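Total RNA was labelled with biotin and measured on arrays. The deposited values are log2 expression from RMA run by the authors, as the submitters' processing notes state, and no version or settings are stated in the labels. RMA removes shifts shared by most genes on an array. Apart from that, the small number of arrays in each group limits precision. From the 45101 probe sets, the 64 control probe sets entered no test. The platform annotation gave 34945 probe sets 1 symbol, 932 several and 9160 none. Each of 18193 genes was represented by its brightest probe set with 1 symbol.

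Group means of all 8 arrays were fitted with limma 3.58.1 (R 4.3.3; lmFit and eBayes, two-sided), and a gene passed at a Benjamini-Hochberg adjusted p under 0.05 over all genes. Other probe sets of a gene were adjusted over all non-control probe sets. The fit was tested on simulated data. Tiers are the 3 sets of arrays parted by the 2 widest gaps in the middle 18S control probe set, and they were blocked as an alternative. Deviations from group means of same-numbered control and Cbx3 arrays correlated by 0.570, 0.585 and 0.744. These arrays also share a tier, so number and tier cannot be told apart there. Same-numbered control and 3XHMT arrays, which lie in different tiers, correlated by 0.11 and -0.56. Control 2 with 3XHMT 1, and control 3 with 3XHMT 2, share a tier but not a number, and correlated by 0.56 and 0.53. The main fit blocked on neither. The labels call replicates biological without saying what was repeated. The p-values compare group means against the spread between these arrays, so the unit they rest on is not known.

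The genes, lists, motifs and alternatives were chosen with earlier results of these data known. Named genes are the 7 measured genes, the siRNA targets, list genes that passed or had the 3 lowest p (some left in counts), chromosome neighbours, and the 5 genes of highest Pearson r with an SD over arrays of at least 0.5, clone names left out. Marker genes of cell types were named as a check. Sequences and gene order come from RefSeq, GRCm38.p6.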

Additional observations from a re-analysis of the deposited data

How the results depend on the processing

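With 2 or 3 arrays a group, every count of calls moved with the processing, and the causes were not tested. For 3XHMT against control, 42 genes were called: 97 with the replicate block, 320 with the tier block, 24 with second brightest probe sets, 9 without dim probe sets, 10 with only the 2 groups fitted, 25 over all probe sets and 3 to 22 when 1 array was left out. For Cbx3 against control, 81 genes were called: 312 with the replicate block, 1199 with the tier block, 27 with only the 2 groups, 35 over all probe sets and 2 to 34 with 1 array left out. For 3XHMT against Cbx3, 275 were called: 655 with the replicate block, 1660 with the tier block, 165 with second brightest probe sets and 22 to 273 with 1 array left out.

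Of the 7 enzyme genes, 1 (Ptgs2) was called in 3XHMT against control. The count was 0 with second brightest probe sets (limma adjusted p = 0.239 for Ptgs2), with only the 2 groups (0.119) and over all probe sets (0.0585), and 0 to 1 with 1 array left out. Ptgs2 kept its call with the replicate block (0.00713), the tier block, the mean of probe sets, cyclic loess, trend and robust variance, and without ambiguous or dim probe sets. In Cbx3 cells its difference of 1.90 was 0.98 at the second probe set, 1.44 for the mean of probe sets and 1.80 to 1.99 with 1 array left out. Alox15 stayed between 2.29 and 2.79 there, and in 3XHMT cells it stayed higher and uncalled under every alternative.

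Pathway genes called in 3XHMT against control were 0, but 1 with the replicate block, 3 with the tier block and 0 to 1 with 1 array left out. In Cbx3 against control they were 1, but 5 with the tier block, 2 with second brightest probe sets, 2 with the mean of probe sets, 0 with only the 2 groups and 0 to 1 with 1 array left out. Between the knockdowns they were 1, but 2 with the replicate block, 7 with the tier block, 2 with the mean of probe sets, 0 with trend and robust variance, 0 over all probe sets and 0 to 2 with 1 array left out. Inducers called were 0 in 3XHMT against control, and 2 with the tier block. In Cbx3 against control they were 1, but 5 with the tier block, 0 with only the 2 groups, 0 over all probe sets and 0 to 1 with 1 array left out. Between the knockdowns they were 2, but 7 with the replicate block, 8 with the tier block, 1 with second brightest probe sets, 1 with only the 2 groups, 1 over all probe sets and 0 to 2 with 1 array left out.

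Small uncalled 3XHMT differences changed sign under some settings. With 1 array left out, Alox5 ranged from -0.18 to 0.028, Alox12 from -0.43 to 0.17, Ptges from -0.31 to 0.072 and Pla2g4a from -0.074 to 0.26. Alox5 became 0.0050 without control replicate 2 and 0.028 without 3XHMT replicate 1, and Alox12 0.022 at the second probe set and 0.17 without 3XHMT replicate 2. Ptges became 0.026 with the replicate block, 0.072 without control replicate 3 and 0.0067 without 3XHMT replicate 2. Pla2g4a became -0.072 without control replicate 1 and -0.074 without 3XHMT replicate 2. Alox12 and Pla2g4a gave no value without dim probe sets, since both lie below that limit. The replicate block changed no call among the 7 genes in 3XHMT against control.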
